A study of Triticum aestivum with 18 samples.

Results

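Germinating wheat embryos treated with abscisic acid (ABA) were compared directly with embryos treated with hydrogen peroxide (H2O2). The comparison used 6 of the 18 arrays in the series, the 3 of ABA_embryo and the 3 of H2O2_embryo, chosen by their labels, and the water controls stayed out of the fit. The series covered embryo and endosperm of 1 bread wheat cultivar, separated by hand from seeds germinated in the dark on filter paper. The harvest point is given both as 16 h and as the radicle coming through the seed coat. Whether the treated groups were matched on time or on stage is not settled by this. Seeds received pure water (CK), 100 mg/L ABA or 100 µmol H2O2, the latter given as an amount with no volume, and the labels name no other difference between the groups. Each group had 3 arrays of biological replicates on the Affymetrix Wheat Genome Array. ABA_embryo and H2O2_embryo each consisted of whole germinating embryos, and CK_embryo consisted of the same tissue in water.

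ABA is the hormone that holds seeds in dormancy and protects them from drying. Its receptors block phosphatases of the 2C type, which frees kinases that switch on basic leucine zipper factors, and these turn on late embryogenesis abundant (LEA) proteins, dehydrins and oil body proteins. H2O2 is a reactive oxygen species that germinating seeds make themselves and that, given from outside, is known to promote germination in cereals. Germination ends with growth of the embryo, for which cells loosen and rebuild their walls and, where they begin to divide, pack new DNA with histones.

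Each signal is the MAS5 intensity that the authors deposited for a probe set, a group of short probes for 1 transcript. Values below 10 were set to 10 before taking log2. Of 61179 wheat probe sets, 48361 reached a signal of 20 on at least 3 of the 6 arrays and were tested. The trimmed mean was 500.1 on H2O2_embryo replicate 1 and 500.1 on each of the other 17 arrays, so the arrays had been scaled to a common level. A probe set is named here by the GenBank accession it was designed on and by the name or match that the study's tables or the platform annotation give, and 1690 of the 61179 carried such a name. Probe sets were called at an adjusted p below 0.05 in limma's moderated test over all 48361. Differences are ABA minus H2O2 on the log2 scale, with their SE from 3 against 3 arrays, and the number of arrays limits their precision. In these whole-embryo samples, fewer cells of a type and less RNA per cell cannot be told apart.

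H2O2_embryo replicate 1 stood apart from the other arrays. Its median signal was 137.9, against 60.3 to 68.2 on the other 5 arrays of the comparison. Signals below 10 made up 6.79% of its probe sets and 17.7 to 20.6% of those on the other 5. Across probe sets its log2 signals correlated at r = 0.805 to 0.840 with the other 5 arrays, whereas the remaining pairs within a group reached 0.946 to 0.951. The ratio of 3' to 5' signal for the ubiquitin control was 0.0711 on this array, 0.501 to 0.577 on the other 5 and 0.466 to 0.627 on the other 17. The same ratio for GAPDH was 0.0221 against 0.0376 to 0.401 on the other 5 and that for sucrose synthase 134 against 195 to 284, both inside the range of the other 17, while those for actin and elongation factor lay inside the range of the other 5. The bioD spike control read 4462 on this array and 5929 to 35076 on the other 17. Its correlation was 0.830 to 0.831 with CK_embryo and 0.769 to 0.780 with the 3 endosperm groups, so it was nearest to embryo arrays. Whether the study's own comparisons used this column as deposited is not given in the sources used here. The main counts are therefore given for all 6 arrays and for the 5 arrays without it, named the 6-array and the 5-array comparison. All 112 named probe sets called with 6 arrays were also called in the same direction with 5, and the 5-array log2 difference stands beside the 6-array one where they differ by more than 0.4, and for a few other genes.

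**Figure D1:**
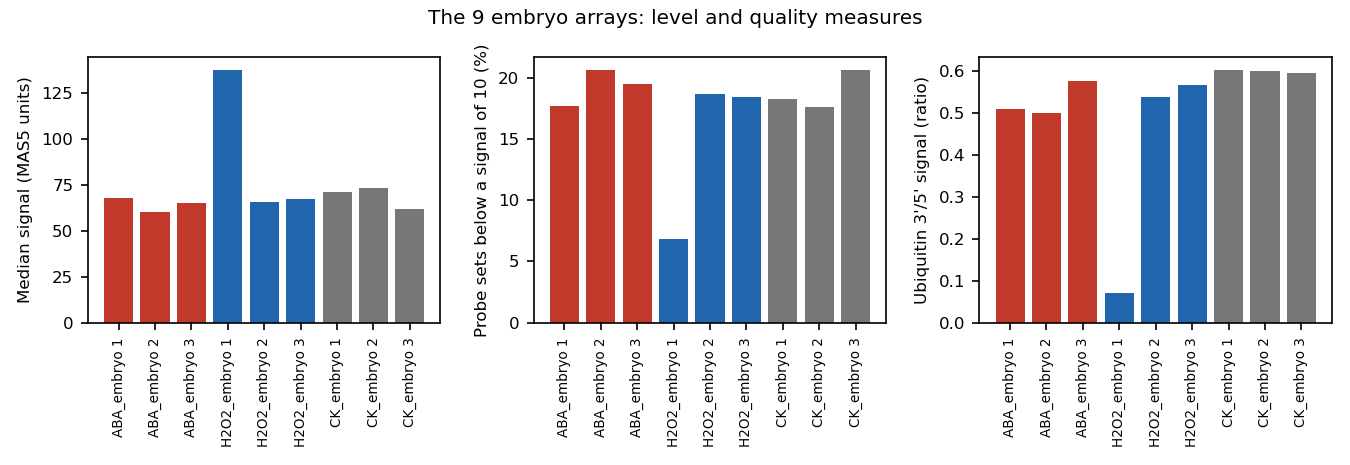
Median signal in MAS5 units (left), the percentage of probe sets below a signal of 10 (middle) and the ratio of 3' to 5' signal for the ubiquitin control (right), 1 bar for each of the 9 embryo arrays. H2O2_embryo replicate 1 has the highest bar in the left panel (137.9) and the lowest bars in the middle (6.79%) and right (0.0711) panels.

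The tissue label was checked with markers of both tissues. Agglutinin isolectin (M25537), the wheat germ lectin of the embryo, gave 1686, 1565 and 1485 in CK_embryo and 272.6, 374 and 413 in CK_endosperm. The other 6 probe sets listed as embryo markers, all for Em proteins, did not set the tissues apart in water, as for one of CD490538 with 7974 to 9267 in CK_embryo and 8636 to 9477 in CK_endosperm. The summed signal of 3 gliadin and glutenin probe sets, which mark the starchy endosperm, was 99.4 to 171 in ABA_embryo, 110.3 to 144 in CK_embryo, 104 to 876 in H2O2_embryo and 496 to 1643 in the endosperm groups. The value of 876 belonged to H2O2_embryo replicate 1 and came from the alpha-gliadin probe set M11075, at 852, 63.3 and 89.1 in H2O2_embryo and 129, 121 and 87.3 in ABA_embryo, while the low-molecular-weight glutenin BJ296454 was at 9.08 on that array and at 83.1 to 450.5 on the endosperm arrays. The part of endosperm carry-over in the results below was not tested. The sum of agglutinin and the 6 Em protein probe sets ran from 34447 to 37861 in CK_embryo, from 36024 to 38178 in CK_endosperm, from 23632 to 24994 in H2O2_endosperm, from 288807 to 314375 in ABA_embryo, from 25143 to 36133 in H2O2_embryo and from 143632 to 161789 in ABA_endosperm, so it followed the ABA treatment in both tissues.

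ABA_embryo and H2O2_embryo differed at 1958 of 48361 probe sets (4.05%) in the 6-array comparison. Of these, 1056 (2.18%) were higher under ABA and 902 (1.87%) were higher under H2O2. The 5-array comparison called 3952 (8.17%) and 4791 (9.91%), and these included all 1056 and all 902. These shares are the background for the counts of every list below, with 6 and with 5 arrays. The larger differences lay on the ABA side. At least 16-fold differences numbered 160 higher under ABA and 19 higher under H2O2 in the 6-array comparison, against 160 and 22 with 5 arrays. At least 2-fold differences numbered 893 and 747 (5-array 1538 and 1452). The median fold of the called probe sets was 3.31 on the ABA side and 2.89 on the H2O2 side, and 1.75 and 1.58 with 5 arrays. The share of calls on the ABA side was 53.9%, and it was 79.9% (520 against 131) when each array was scaled to its own median, under which the median log2 difference of all tested probe sets moved from -0.17 to 0.22. That scaling divides the signals of H2O2_embryo replicate 1 by its high median. Where an accession had a called probe set and at least 1 other probe set, all of them lay on the same side of 0 for 159 of 159 accessions. Probe sets of 1 accession can be variants for the same target, as those of the histone BJ308545 are. They were read on the same arrays, so this agreement is not independent support. Names were known for 195 of the 1958 called probe sets, 96 higher under ABA and 99 higher under H2O2.

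The level in water, which the fit did not use, lay nearer to H2O2_embryo for most called probe sets. On the log2 scale the mean of CK_embryo was nearer the mean of H2O2_embryo than that of ABA_embryo for 974 of the 1056 probe sets higher under ABA (92.2%) and for 806 of the 902 higher under H2O2 (89.4%). Over all tested probe sets this share was 44.7%. With 5 arrays the shares were 76.0%, 79.6% and 56.4%.

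LEA proteins and dehydrins, hydrophilic proteins that protect drying seed tissue, were the group with the highest median difference among those of more than 10 tested probe sets. Of 27 probe sets, 23 were higher under ABA and 2 were higher under H2O2, beside 2.18% and 1.87% of all tested. Their median log2 difference was 3.67, beside -0.17 over all tested. With 5 arrays the counts were 24 and 3 and the median was 3.37. Every member of this list was named in the study's tables of changed genes, so its direction is not independent evidence. The median signal of the list was 11593 to 11966 on the 3 ABA_embryo arrays and 666, 1233 and 1185 on H2O2_embryo replicates 1, 2 and 3.

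The plasma membrane protein PM 19 (U80037), named for its induction by ABA, had signals of 11715, 11966 and 11593 in ABA_embryo and 266, 286 and 293 in H2O2_embryo. The arrays of each group lay close together and the groups were far apart, a 41.8-fold difference (log2 5.39 ± 0.14 (SE), adjusted p = 4.7e-06; 5-array log2 5.34). The dehydrin CD920810 had 12270.2, 12157 and 11877 under ABA and 385, 254 and 219 under H2O2 (log2 5.44 ± 0.22 (SE), adjusted p = 1.5e-05). CK_embryo, at 299, 262 and 231, fell among the H2O2_embryo values. The Rab protein X62476, named for being responsive to ABA, reached 30594, 33091 and 28134 under ABA and 633, 1233 and 1185 under H2O2, with replicate 1 the lowest (log2 4.97 ± 0.27 (SE), adjusted p = 5.0e-05; 5-array 4.66). A group 3 LEA protein (CD913614) had 4737, 5159.7 and 3883 against 143, 25.1 and 132 (log2 5.87 ± 0.62 (SE), adjusted p = 0.0018; 5-array 6.31). Here it was H2O2_embryo replicate 2 that lay below the other H2O2 arrays.

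The Em protein BQ579513, the seed LEA protein first described in wheat embryos, had some of the highest signals in the comparison, 41571, 41668 and 39237 in ABA_embryo against 976, 2185 and 2065 in H2O2_embryo (log2 4.64 ± 0.30 (SE), adjusted p = 1.5e-04; 5-array 4.26). Em transcripts were not at background in the other groups, since CK_embryo had 2088, 2387 and 2355. Dehydrin WZY1-1 (AF453444) was at 1097, 1075 and 1133 under ABA and 12.9, 54.6 and 75.7 under H2O2 (log2 4.87 ± 0.61 (SE), adjusted p = 0.0045; 5-array 4.10). Its H2O2_embryo values spread more than its ABA_embryo values, with replicate 1 the lowest. The Rab protein BQ806472 differed by a log2 of 4.70 ± 0.32 (SE), adjusted p = 2.0e-04, PMA1951 (CD913616) by 4.58 ± 0.36 (SE; 5-array 5.003), adjusted p = 4.5e-04, and Wrab15 (AB115913) by 4.38 ± 0.31 (SE), adjusted p = 2.3e-04, and in none of these did the 2 groups overlap.

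Not every dehydrin was higher under ABA. WCOR410c (BJ264076), an acidic dehydrin of cold-acclimated wheat, had a log2 difference of -2.23 (adjusted p = 4.7e-04), and WCOR410b (U73210) had -1.14 (adjusted p = 0.019), both higher under H2O2. A further WCOR410c probe set (CA635460) had -0.54 and did not pass the test with 6 arrays (adjusted p = 0.20). WCS66 (L27516), a dehydrin of the cold response, had 2.10 and also missed the threshold (adjusted p = 0.069).

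**Figure D2:**
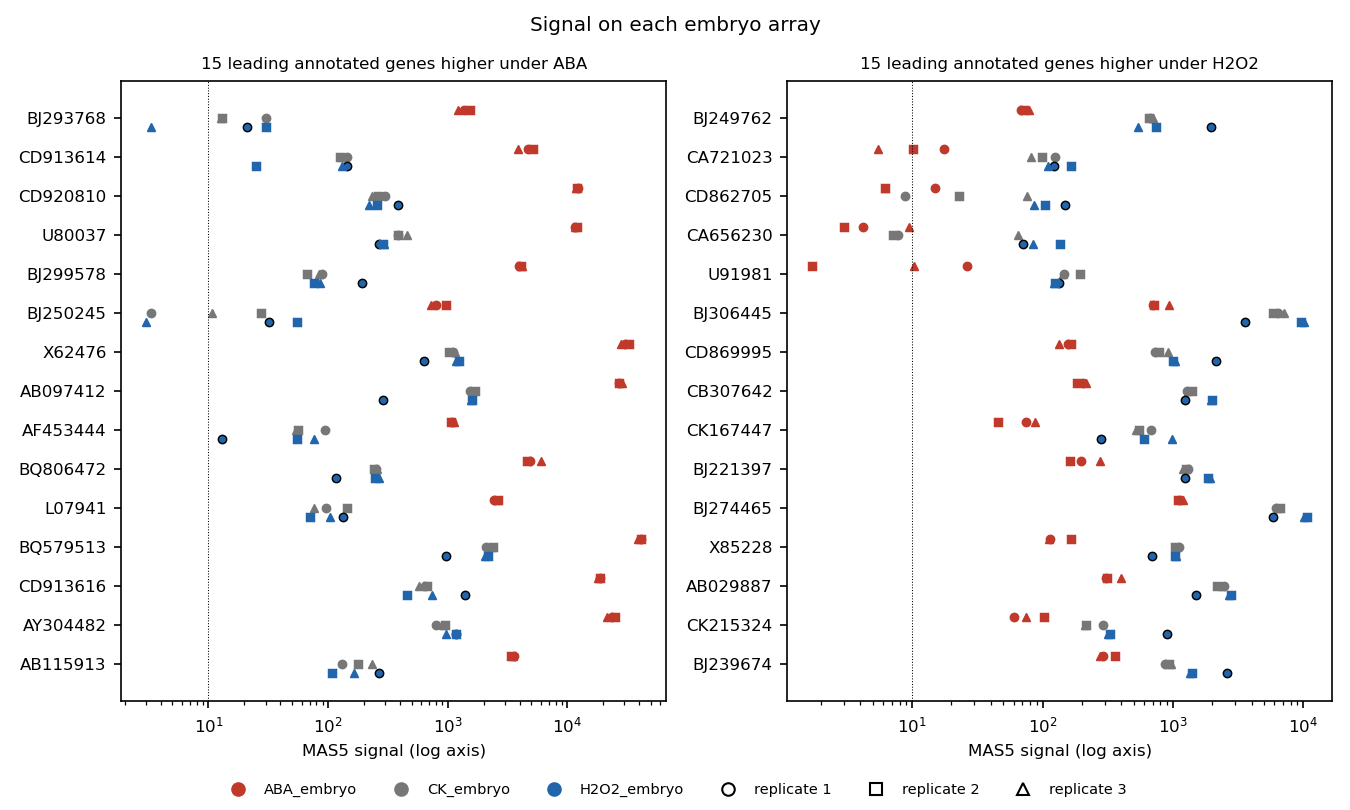
MAS5 signal (log axis) on each array of ABA_embryo (red), H2O2_embryo (blue) and CK_embryo (grey) for the 15 genes on either side with the largest called differences among those annotated in the platform or supplementary tables; marker shapes give the replicate and the dotted line the floor of 10. The red points lie apart from the blue points in every row, and the grey points of most rows lie near the blue ones, as for U80037.

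Proteins of cold acclimation were divided. Of 17 probe sets, which share WCOR410 and 1 COR protein with the LEA list, 9 were higher under ABA and 4 were higher under H2O2 (5-array 9 and 5), with a median log2 difference of 1.02 (5-array 1.05). All were named in the study's tables of changed genes. A cold regulated protein (AB097412) had 27306, 27208 and 28683 under ABA and 287, 1588 and 1556 under H2O2 (log2 4.96 ± 0.60 (SE), adjusted p = 0.0038; 5-array 4.14), where the low value again belonged to H2O2_embryo replicate 1. Cold acclimation induced protein 2-1 (CA673444) had 4516, 4301 and 3817 against 364, 261 and 333 (log2 3.73 ± 0.18 (SE), adjusted p = 3.3e-05), with no overlap of the arrays. The LEA/RAB-related COR protein AF139915 differed by 3.43 ± 0.19 (SE), adjusted p = 6.6e-05. On the other side, 1 probe set each of WCOR825 (U73215) and WCOR615 (U73217) was called higher under H2O2, at -1.09 and -1.63, and no member of the list was called higher under H2O2 after scaling to the median.

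Components of ABA signalling were mostly higher under ABA. Of 12 probe sets, all from the study's tables of changed genes, 8 were higher under ABA and 0 under H2O2, beside 2.18% and 1.87% of all tested, and with 5 arrays 10 and 0, beside 8.17% and 9.91%. The median log2 difference was 1.78 (5-array 1.70), beside -0.17 (5-array -0.05) over all tested. Protein phosphatase 2C, the type of phosphatase that ABA receptors inhibit, had 8555, 8605 and 7411 under ABA and 1098, 1063 and 1008 under H2O2 for BQ807036 (log2 2.95 ± 0.14 (SE), adjusted p = 3.3e-05). A further phosphatase 2C (CK208784) differed by 2.45 ± 0.18 (SE), adjusted p = 2.7e-04. The phosphatase values in CK_embryo, 1182, 1173 and 1295 for BQ807036, were near those of H2O2_embryo. An ABA response element binding factor (AF519804), a basic leucine zipper protein that reads ABA-responsive promoters, had 3281, 3153 and 2839 against 877, 614 and 575 (log2 2.19 ± 0.20 (SE), adjusted p = 8.5e-04). The related factor CN011008 had 402, 415 and 468 against 119, 103 and 135 (log2 1.85 ± 0.25 (SE), adjusted p = 0.0066). The ABA inducible protein AB115914 was at 2580.2, 2496 and 2701 under ABA and 666, 165 and 155 under H2O2, and the value of 666 on replicate 1 moved the log2 difference from 4.02 with 5 arrays to 3.33 ± 0.51 with 6 (adjusted p = 0.012). When 1 of the other 5 arrays was left out, between 3 and 8 of the 12 were called.

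The lists for transcription factors, hormones, antioxidant enzymes, sucrose and fructan enzymes, starch cleavage, defence, proteases, transport and cell division were likewise drawn wholly from the study's tables of changed genes. The list of transcription factors held 17 probe sets, of which 5 were higher under ABA and 1 under H2O2 (5-array 7 and 3). Myb3 (AJ615787) had 959, 982 and 900.0 against 377, 300.2 and 286 (log2 1.57 ± 0.19 (SE), adjusted p = 0.0037), and an EREBP/AP2 factor (CA639840) differed by 1.22 ± 0.17 (SE), adjusted p = 0.0065. WRKY45 (BQ838257) was the factor higher under H2O2, at 979, 1041 and 816 against 304, 346 and 248 under ABA (log2 -1.67 ± 0.21 (SE), adjusted p = 0.0045). Its values in water, 559.6, 551 and 681, fell between the treatments.

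Among 10 probe sets for hormone synthesis and signalling, 3 were higher under ABA and 3 under H2O2 (5-array 6 and 4). BJ293360, known only by the class hormone metabolism, had 24184, 24961 and 25400.2 in ABA_embryo and 148, 270.2 and 337 in H2O2_embryo, a 105-fold difference (log2 6.71 ± 0.29 (SE), adjusted p = 1.8e-05). The ethylene constitutive triple response protein BJ321260, a kinase type that holds the ethylene signal in check, had 1404, 1450.3 and 1496 against 303, 274 and 266 (log2 2.37 ± 0.17 (SE), adjusted p = 2.2e-04). The opposite extreme was a lipoxygenase (BE604829), an enzyme that oxygenates unsaturated fatty acids. Its signals were 380.1, 313 and 312 under H2O2 and 6.85, 4.32 and 4.20 under ABA, all of the latter below the floor of 10, so the log2 difference of -5.06 ± 0.45 (SE), adjusted p = 7.5e-04 is not exact. In water the same probe set read 167, 210.2 and 178.

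Several genes outside the LEA list had differences as large. L-isoaspartyl methyltransferase (L07941), which repairs aged residues in seed proteins, was at 2436, 2635 and 2604 under ABA and 133, 70.1 and 103 under H2O2 (log2 4.69 ± 0.26 (SE), adjusted p = 6.2e-05). A match to transketolase, an enzyme of the Calvin and pentose phosphate pathways, had 3916, 4101 and 4179.6 against 194, 76.2 and 85.4 at BJ299578 (log2 5.23 ± 0.34 (SE), adjusted p = 1.5e-04; 5-array 5.65), and a further probe set with this match, BJ293768, differed by 6.20 ± 0.44 (SE), adjusted p = 2.5e-04. The H2O2_embryo signals of BJ293768, 20.98, 30.4 and 3.33, were near the floor, so its value is not exact. These transketolase matches are the 2 probe sets higher under ABA among 99 of the Calvin cycle and photorespiration.

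Antioxidant and redox enzymes went both ways. Of 26 probe sets, 6 were higher under ABA and 4 under H2O2 (5-array 11 and 8), and the median log2 difference was -0.10 (5-array 0.18; 0.30 with median scaling, under which all tested had 0.22). The peroxiredoxin AY304482, a 1-Cys type known from dormant cereal seeds, had 23484, 24916 and 21384 under ABA and 1183, 1178 and 974 under H2O2 (log2 4.39 ± 0.16 (SE), adjusted p = 9.8e-06). The groups lay far apart, and CK_embryo was at 806, 953 and 911. Alternative oxidase (AB078883), which lets mitochondrial electrons bypass part of the respiratory chain, had 575, 547 and 451 against 33.96, 6.73 and 69.05 (log2 4.19 ± 0.67 (SE), adjusted p = 0.014). The signal of 6.73 lay below the floor, so this value is not exact. Oxalate oxidase (CA611128), which releases H2O2 from oxalate, had 764, 928 and 819 against 129, 221 and 159 (log2 2.33 ± 0.26 (SE), adjusted p = 0.0023). Peroxidase X85228, which consumes H2O2, was higher under H2O2, at 694, 1036 and 1051 against 115, 165 and 112 (log2 -2.82 ± 0.27 (SE), adjusted p = 0.0012). Its level in water, 1109, 1039 and 1071 in CK_embryo, was not below that under H2O2. Germin (M21962), the name under which cereal oxalate oxidase was first found in germinating wheat, had a log2 difference of -2.32 (adjusted p = 4.5e-04), opposite to that of CA611128. The other members higher under H2O2 were peroxidase X85230 at -1.91 and the glutathione transferase AY064480 at -1.73.

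Oil body proteins and an enzyme of oil synthesis were higher under ABA. A match to oleosin OLEO1, the coat protein of oil bodies, had 23399, 24274 and 20805 in ABA_embryo and 1536, 1142 and 1083 in H2O2_embryo at CD921530 (log2 4.20 ± 0.18 (SE), adjusted p = 1.8e-05). A further oleosin match (CD920884) had 15269.5, 15398 and 14366 against 1289.6, 775 and 846 (log2 3.99 ± 0.21 (SE), adjusted p = 4.7e-05). The match BE515598 to diacylglycerol acyltransferase, which makes the last step to triacylglycerol, had 2591, 2616 and 2325 against 341, 509.5 and 535 (log2 2.47 ± 0.21 (SE), adjusted p = 6.1e-04), and BT009528, with the same match, differed by 2.20 ± 0.43 (SE; 5-array 1.65), adjusted p = 0.030. In the whole class of phospholipid, glycolipid and triacylglycerol synthesis, 6 of 99 were higher under ABA and 5 under H2O2 (5-array 12 and 16), with a median of 0.03 (5-array 0.06). A non-specific lipid transfer protein of type 1 (BJ296643) had 248, 347 and 247 against 18.97, 15.9 and 21.002 (log2 3.91 ± 0.43 (SE), adjusted p = 0.0023), with H2O2_embryo values near the floor. The study's table of key embryo genes instead puts this accession in a ubiquitin class of protein degradation, so its name is uncertain. Of 21 lipid transfer proteins and oleosins, 4 were higher under ABA and 0 under H2O2 (5-array 7 and 1).

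Metallothioneins bind metals through cysteine. The Ec protein (CD906435), the zinc-binding metallothionein of wheat embryos, had 22464, 23435 and 23485 in ABA_embryo and 757, 1853 and 1735 in H2O2_embryo (log2 4.10 ± 0.33 (SE), adjusted p = 4.5e-04; 5-array 3.69). Metallothionein BQ606088 had 4296, 4024 and 4329 against 1427, 2072 and 2320.0 (log2 1.15 ± 0.20 (SE), adjusted p = 0.021). For the latter CK_embryo, at 3964, 3686 and 4035, resembled ABA_embryo and not H2O2_embryo. Of 11 probe sets in the list, 2 were called and both were higher under ABA (5-array 5 and 0 under H2O2), and the median log2 difference was 0.65.

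The study had singled out 5 accessions, held by 7 probe sets, as moved by ABA alone, and 5 of the 7 probe sets were higher under ABA here. The study chose them from these same arrays, so a difference here is not independent evidence. The accession BJ299669, of the class storage proteins, had the largest log2 difference of all tested probe sets in the 6-array comparison. One of its probe sets gave 7472, 8103 and 8716 under ABA and 70.98, 86.2 and 49.6 under H2O2 (log2 6.91 ± 0.23 (SE), adjusted p = 7.7e-06), and the other gave 10088, 9435 and 10204 and 287, 123 and 165 (log2 5.78 ± 0.29 (SE), adjusted p = 3.9e-05). BJ296527, of the class biodegradation of xenobiotics, had 18452, 20337 and 17927 and 489.8, 284 and 341 (log2 5.70 ± 0.22 (SE), adjusted p = 1.2e-05), and its other probe set differed by 5.01. The accessions BQ169398 and CA719001, of the class starch cleavage, had log2 differences of -1.85 and -1.31 that missed the threshold with 6 arrays (adjusted p = 0.20 and 0.14). Agglutinin M25537 was also higher under ABA, at 17395, 19087 and 16275 against 2256, 2126 and 2094 (log2 3.02 ± 0.15 (SE), adjusted p = 3.3e-05).

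Proteins linked to defence and protein breakdown had smaller differences. Of 18 pathogenesis-related probe sets, 2 were higher under ABA and 0 under H2O2 (5-array 9 and 1), among them chitinase 3 (AB029936), which degrades fungal walls, at 2758, 2761 and 2966 against 647, 1289.9 and 1322 (log2 1.45 ± 0.28 (SE), adjusted p = 0.029). Of 8 proteases and their inhibitors, 3 were higher under ABA and 1 under H2O2 in both comparisons. The multidomain cystatin AL829976, an inhibitor of cysteine proteases, had 15337, 17182 and 14356 against 3457, 5357 and 5009 (log2 1.78 ± 0.21 (SE), adjusted p = 0.0030), and a subtilisin protease (CD931425) had 1761, 632 and 646 under H2O2 against 207, 307 and 227 under ABA (log2 -1.88 ± 0.41 (SE), adjusted p = 0.048; 5-array -1.39). None of 4 heat shock probe sets was called with 6 arrays, and 1 was higher under ABA with 5.

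Histones were the group with the lowest median difference, that is, the one most in favour of H2O2. Of 45 probe sets from 34 accessions, 34 were higher under H2O2 and 0 under ABA, beside 1.87% and 2.18% of all tested. Their median log2 difference was -2.55. With 5 arrays 44 were higher under H2O2 and the median was -2.93. The median signal of the list was 423 to 440.1 on the ABA_embryo arrays, 1988 to 2110 in CK_embryo, and 1555, 3305 and 3033 on H2O2_embryo replicates 1, 2 and 3. H2O2_embryo replicate 1 thus lay below the water controls and the other H2O2 arrays above them, and every array of H2O2_embryo and CK_embryo lay above every ABA_embryo array.

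All 45 probe sets came from the study's tables of changed genes, so their direction is not independent evidence. The study named 22 of them H2A (7) or H2B (15), of which 12 were higher under H2O2 (5-array 21) with a median of -2.002 (5-array -2.31). The other 23 are known only by the class histone, from the study's table of key genes changed in embryo under both treatments, a table that also holds some of the named ones, such as BJ306445, BJ274465 and BJ221397. Of these 23, 22 were higher under H2O2 (5-array 23) and the median was -3.20 (5-array -3.48). In the whole list, 23 probe sets carry a suffix for probes that can match several family members, so they are not independent of each other. Among the 22 without such a suffix, 18 were higher under H2O2 (5-array 21). With 6 arrays 42 of the 45 lay below 0 and 3 above it, at 0.57, 0.21 and 0.11. Those 3 were H2B-8 probe sets and were not called. Their ABA_embryo signals ran from 3808 to 7159, above the list median on those arrays.

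Histone H2A (BJ306445) had 3548, 9548 and 10022 in H2O2_embryo and 704, 716 and 929.8 in ABA_embryo (log2 -3.17 ± 0.39 (SE), adjusted p = 0.0038; 5-array -3.65). The lowest of its H2O2 values still lay above the highest ABA value, and CK_embryo had 6416, 5887 and 7122. A further H2A (CD869995) had 2132, 1004 and 1041 against 157, 165 and 133 (log2 -3.11 ± 0.32 (SE), adjusted p = 0.0016), with replicate 1 the highest of the 3 this time. H2A BJ274465 differed by -2.92 ± 0.24 (SE), adjusted p = 5.6e-04. Histone H2B-8 had 1236, 1987 and 1959 against 203, 185 and 217 at CB307642 (log2 -3.07 ± 0.23 (SE), adjusted p = 3.6e-04) and 1235, 1857 and 1917 against 199, 163 and 276 at BJ221397 (log2 -2.98 ± 0.27 (SE), adjusted p = 8.7e-04). Both H2B-8 probe sets were at about the same level in water, 1290.1, 1403 and 1302 for CB307642.

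Among the histones known only by class, BJ214272 had the lowest difference, with 626, 992 and 857 under H2O2 and 16.6, 78.05 and 38.8 under ABA (log2 -4.46 ± 0.55 (SE), adjusted p = 0.0041). BJ308545 had 2891, 1168 and 1179 against 72.3, 97.8 and 63.5 (log2 -4.37 ± 0.39 (SE), adjusted p = 7.9e-04; 5-array -3.94). BJ308450 had 1015, 3489 and 3388 against 204, 142 and 114 (log2 -3.95 ± 0.48 (SE), adjusted p = 0.0040; 5-array -4.53), and BJ320258 differed by -3.86 ± 0.24 (SE), adjusted p = 1.2e-04. On BJ308545 H2O2_embryo replicate 1 was the highest array and on BJ308450 the lowest of its group, and neither brought the groups to overlap. The mean of CK_embryo lay nearer H2O2_embryo for 43 of the 45 histone probe sets. When 1 of the other 5 arrays was left out, 24 to 29 histone probe sets were called higher under H2O2. With each array scaled to its median the count was 10, SAM (significance analysis of microarrays) called 11 at 5% and 1 at 1%, and the median of the list stayed below 0 under each alternative, between -2.95 and -2.15.

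**Figure D3:**
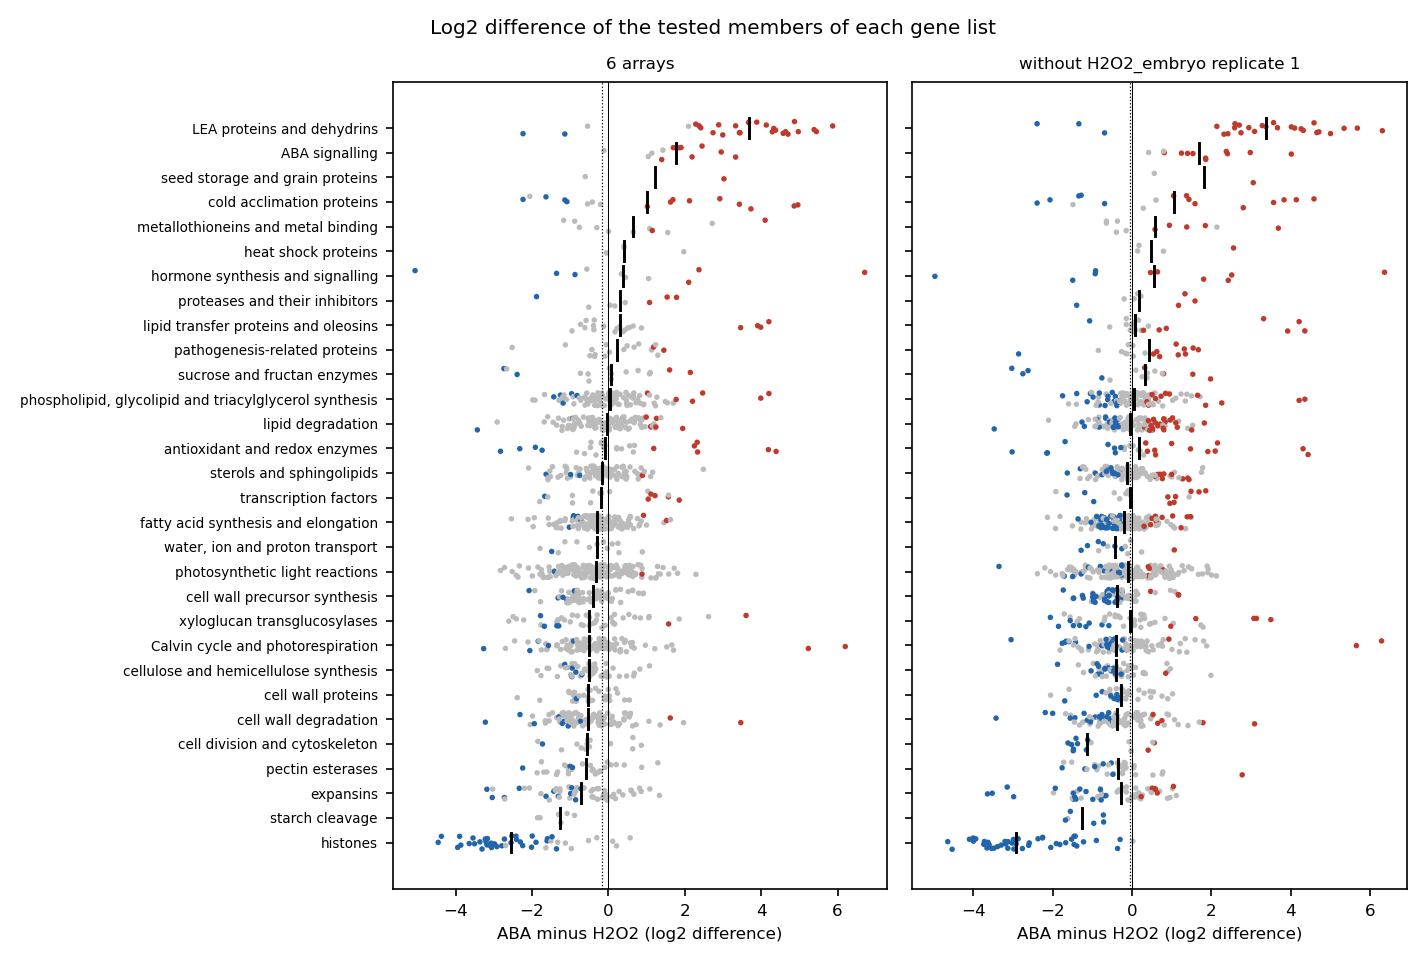
Log2 difference (ABA minus H2O2) of every tested member of each gene list, 1 point per probe set, with 6 arrays (left) and without H2O2_embryo replicate 1 (right); red points were called higher under ABA, blue points higher under H2O2 and grey points not called, the black bar is the list median and the dotted line the median of all tested probe sets. The LEA list has its median at 3.67 and the histones at -2.55 in the left panel, and more points are coloured in the right panel.

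Other genes of the dividing and growing cell differed less. In the list of cell division and the cytoskeleton 1 of 14 probe sets was called, higher under H2O2, and 8 were with 5 arrays, beside 2 higher under ABA. The median was -0.55 (5-array -1.13). The called member was alpha tubulin (CA640220), the subunit of microtubules, at 3144, 2501 and 2471 under H2O2 and 823, 883 and 739.7 under ABA (log2 -1.72 ± 0.17 (SE), adjusted p = 0.0012). Actin (CK160285) had 3411, 3478 and 3433 against 1611, 2569 and 2615 and did not pass with 6 arrays (log2 0.64, adjusted p = 0.17).

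Expansins, the proteins that loosen cell walls without cutting them, were called only in favour of H2O2 with 6 arrays. Of 55 tested probe sets, 11 were higher under H2O2 and 0 under ABA, beside 1.87% and 2.18% of all tested, and their median log2 difference was -0.72, beside -0.17. With 5 arrays 17 were higher under H2O2 and 6 under ABA, beside 9.91% and 8.17%, and the median was -0.28, beside -0.05. Leaving out 1 of the other 5 arrays brought the 11 down to between 2 and 5, and scaling to the median left 1, and SAM called 0 at 5%. Outside these 55, the match BJ249762 to a rice expansin B2 led the 15 ranked genes on the H2O2 side, at 1946, 743 and 539 against 68.7, 72.3 and 78.97 (log2 -3.65 ± 0.46 (SE), adjusted p = 0.0044; 5-array -3.11), and CK_embryo had 672, 649.5 and 698. Also outside these 55, BJ250245, known only by the class cell wall modification, was among the 15 ranked genes on the ABA side. It had 803, 963 and 729 under ABA and 32.2, 54.9 and 3.004 under H2O2 (log2 4.99 ± 0.60 (SE), adjusted p = 0.0036). Its H2O2_embryo signals were low and partly below the floor, so this value is not exact. Within the list, the match CK167447 to an Arabidopsis expansin B2 had 281, 597 and 981 against 74.2, 45.5 and 87.7 (log2 -3.04 ± 0.50 (SE), adjusted p = 0.015; 5-array -3.52). U91981 had 133, 125 and 122 against 26.5, 1.70 and 10.3, partly below the floor (log2 -3.18 ± 0.59 (SE), adjusted p = 0.026). Expansin EXPA5 (AY543531) had 1188, 509 and 524 against 139, 125 and 142 (log2 -2.33 ± 0.36 (SE), adjusted p = 0.011; 5-array -1.93), and EXPA3 (AY543529) had 2029, 1469.7 and 1273 against 449, 582 and 489 (log2 -1.63 ± 0.22 (SE), adjusted p = 0.0062).

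Xyloglucan transglucosylases, which cut and rejoin wall xyloglucan, went both ways. Of 43, 2 were higher under ABA and 4 under H2O2 (5-array 5 and 9), and the median was -0.50 (5-array -0.05). The match CK163798 had 567, 672 and 718 under ABA and 46.2, 65.7 and 50.1 under H2O2 (log2 3.60 ± 0.29 (SE), adjusted p = 4.6e-04), with CK_embryo at 58.1, 59.9 and 58.3. The match CK212850 to XTH22 differed by 1.58 ± 0.19 (SE), adjusted p = 0.0036 in the same direction. By contrast BJ319552 had 2447, 5674 and 5152 against 1323, 1433 and 1158 (log2 -1.68 ± 0.31 (SE), adjusted p = 0.026), and the match CA606310 to XTH20 differed by -1.78 ± 0.26 (SE), adjusted p = 0.0084.

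For the enzymes that make and cut other wall polymers and for wall proteins, most calls lay on the H2O2 side, and their number depended on the arrays used. When 1 of the other 5 arrays was left out, 0 to 3 probe sets of each of the 5 classes were called higher under H2O2, and 0 or 1 with median scaling. The share called in either direction was 2.94% to 10.6%, beside 4.05% over all tested (5-array 21.9% to 48.6%, beside 18.1%). Of 53 for cellulose and hemicellulose synthesis, 0 were higher under ABA and 5 under H2O2 (5-array 2 and 16). The match CD937007 to the mannan synthase CSLA02 had 5057, 4102 and 3934 under H2O2 and 1904, 2046 and 1952 under ABA (log2 -1.14 ± 0.16 (SE), adjusted p = 0.0066), and the matches BJ260861 and CA607764 to the cellulose synthase subunits CESA1 and CESA3 differed by -0.96 ± 0.14 (SE), adjusted p = 0.011 and by -0.69 ± 0.13 (SE), adjusted p = 0.030. These differences were near 1 log2 unit or smaller, and no array of one group overlapped the other. Of 70 for wall precursors, 0 and 5 were called (5-array 3 and 31). The match CF133760 to AXS2, which makes UDP-apiose and UDP-xylose, had 13557, 11129 and 10957 against 5446, 5687 and 5539 (log2 -1.09 ± 0.16 (SE), adjusted p = 0.0087), and the match CK208132 to VTC1, which makes GDP-mannose, differed by -2.08 ± 0.32 (SE), adjusted p = 0.011. Of 94 for wall degradation, 2 were higher under ABA and 8 under H2O2 (5-array 5 and 19). A glycosyl hydrolase match (CD454334) had 668, 562 and 465 against 101, 115 and 122 (log2 -2.31 ± 0.25 (SE), adjusted p = 0.0023), whereas a pectate lyase match (CD454482) was higher under ABA, at 211, 142 and 216 against 4.43, 12.96 and 36.997. Of 32 pectin esterases 3 were higher under H2O2 and 0 under ABA (5-array 6 and 1), led by CD896411 (log2 -2.24 ± 0.44 (SE), adjusted p = 0.032; 5-array -1.76), and of 34 wall proteins 1 was (5-array 9), BJ283983, a match to the reversibly glycosylated polypeptide RGP1 (log2 -0.84 ± 0.17 (SE), adjusted p = 0.038). In these 5 wall classes the median lay between -0.58 and -0.41 with 6 arrays and between -0.41 and -0.29 with 5, beside -0.17 and -0.05 over all tested.

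Sugar enzymes went in both directions. Sucrose-phosphate synthase 2 (CD910522), which commits carbon to sucrose, had 3651, 3161 and 3219 under ABA and 601, 833 and 858 under H2O2 (log2 2.14 ± 0.19 (SE), adjusted p = 6.8e-04), and sucrose-phosphate synthase 5 (CD454434) differed by 1.60 ± 0.33 (SE), adjusted p = 0.037. Sucrose:fructan 6-fructosyltransferase (AB029887), which builds fructan from sucrose, had 1492, 2789 and 2709.9 under H2O2 and 307, 312 and 399 under ABA (log2 -2.73 ± 0.27 (SE), adjusted p = 0.0014). Its water level, 2456, 2163 and 2373, lay near H2O2_embryo replicates 2 and 3. None of 6 starch cleavage probe sets passed with 6 arrays and all 6 had values below 0 (median -1.27), and 5 were higher under H2O2 with 5 arrays. For AL820663, of that class, CK_embryo had 2484, 2451 and 2385, above both H2O2_embryo (903, 527 and 484) and ABA_embryo (253, 282 and 243).

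Further single genes higher under H2O2 included a salt tolerant protein (BJ239674) at 2592, 1406 and 1351 against 289, 356 and 278 (log2 -2.48 ± 0.28 (SE), adjusted p = 0.0026) and an ADP-glucose pyrophosphatase (CK215324) at 907, 327 and 319 against 60.7, 103 and 75.1 (log2 -2.55 ± 0.47 (SE), adjusted p = 0.024; 5-array -2.06). On both, H2O2_embryo replicate 1 was the highest array of its group. Aquaporin BJ230034, a water channel, had 7389, 4932 and 4789.9 against 1965, 1967 and 2067 (log2 -1.48 ± 0.20 (SE), adjusted p = 0.0058), the 1 called member of 13 for transport (5-array 6, and 1 higher under ABA). Low signals made other values inexact, as for the phospholipase D match CA721023 at 123, 164 and 109.6 against 17.5, 10.1 and 5.51 (log2 -3.43), the glycine decarboxylase match CD862705 at 149, 104 and 85.2 against 14.9, 6.21 and 6.23 (log2 -3.26) and the pectate lyase match CA656230 at 70.1, 136 and 85.04 against 4.19, 2.998 and 9.39 (log2 -3.22). Leaving out 1 array ended the calls of CA721023, CD862705, CA656230, U91981, CK167447 and CK215324 in 4 or 5 of 6 cases each.

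The classes of photosynthesis and lipid metabolism had called shares on both sides of the 4.05% over all tested. Of 170 probe sets for the light reactions 1 was higher under ABA and 1 under H2O2 (1.18% called; 5-array 4 and 13, 10% beside 18.1%). The small subunit match BE216923 of Rubisco had 3787, 1716 and 1836 against 528, 586 and 536 (log2 -2.06 ± 0.30 (SE), adjusted p = 0.0089), 1 of 5 in the Calvin cycle and photorespiration class higher under H2O2 (5-array 22 of 99), where 7.07% were called. Fatty acid synthesis and elongation had 2 and 6 of 152 (5.26% called; 5-array 11 and 38, 32.2%), among them the long-chain acyl-CoA synthetase match CK196203 at 10648, 10619.5 and 10285 under ABA against 2454, 4412 and 4510.4 (log2 1.52 ± 0.25 (SE), adjusted p = 0.015). Sterols and sphingolipids had 1 and 3 of 92 (4.35%; 5-array 9 and 12, 22.8%), and lipid degradation had 6 and 2 of 114 (7.02%; 5-array 21 and 17, 33.3%). The acyl-CoA oxidase match CD373536, of peroxisomal fatty acid breakdown, had 1738, 1664 and 1459 against 562, 799 and 708 (log2 1.24 ± 0.19 (SE), adjusted p = 0.010), and a lipase-related match (BE420352) differed by 1.94 ± 0.18 (SE), adjusted p = 8.6e-04. The medians of the light reactions, fatty acid synthesis, sterols and lipid degradation were -0.31, -0.29, -0.18 and -0.05, beside -0.17 over all tested.

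The unnamed probe sets with the largest differences were AJ603999 and CD907588 on the ABA side and BJ286175 and BJ284210 on the H2O2 side. AJ603999 had 2539, 2272 and 2681 under ABA and 44.8, 7.13 and 28.7 under H2O2 (log2 6.73 ± 0.52 (SE), adjusted p = 3.6e-04; 5-array 7.20). Its H2O2_embryo signals were low and partly below the floor, so this value is not exact. BJ286175 had 976, 349 and 355 under H2O2 and 4.74, 5.34 and 15.2 under ABA, at or near the floor (log2 -5.43 ± 0.55 (SE), adjusted p = 0.0015; 5-array -4.93).

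Of the study's panel for quantitative PCR, 3 genes were matched to 5 probe sets. Their primers are shown because they are the oligonucleotides with which the study measured expansins and a wall precursor enzyme by another method, and they are printed 5' to 3' from the study's primer table.
Expansin A1 (AY485121) forward: catcaacggccactcctact
Expansin A1 (AY485121) reverse: aaggtgttgctctgccagtt
Expansin B2 (AY543540) forward: tgcggttcatgctacaagat
Expansin B2 (AY543540) reverse: gaactcgatgtcgatgatgc
Phosphomannomutase (CK198230) forward: ggtgtcagtgcttcgtgaaa
Phosphomannomutase (CK198230) reverse: tgatcattgccacccttgta
None of the 5 probe sets was called with 6 arrays. Expansin A1 had 2906, 2872 and 2615 in ABA_embryo and 6495, 2401 and 2384 in H2O2_embryo, replicate 1 above all ABA arrays and replicates 2 and 3 below them, and its log2 difference was -0.26 with 6 arrays and 0.22 with 5. Phosphomannomutase, an enzyme on the way to GDP-mannose, had 679.6, 498 and 663 against 443, 1398 and 1492 for one probe set, and this was higher under H2O2 with 5 arrays (log2 -1.25 ± 0.14, adjusted p = 2.4e-04) but not with 6 (adjusted p = 0.47). The other probe set had -0.49 with 5 arrays (adjusted p = 0.0021). The probe sets of expansin B2 (AY543540) read low, with 47.2, 29.4 and 24.8 against 202, 26.2 and 40.1 for one of them, and their groups overlapped.

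The same contrast was then set against that in endosperm, which rests on 6 other arrays. The difference between tissues was tested as an interaction over 12 arrays and 55586 probe sets. It was called at 1491 (2.68%), of which 805 (1.45%) had a higher ABA minus H2O2 value in embryo and 686 (1.23%) a lower one. Without H2O2_embryo replicate 1 these were 2630 (4.73%) and 2414 (4.34%), 9.07% in all.

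Histones ran in opposite directions in the tissues. Of the 45 probe sets, 34 were higher under H2O2 in embryo, while in endosperm 32 were higher under ABA and 0 under H2O2. Over all 55586 probe sets tested in endosperm, 1560 were higher under ABA and 1825 under H2O2. The interaction was called for 36 of 45, all lower in embryo, and for 45 of 45 without H2O2_embryo replicate 1. The median log2 difference was -2.55 in embryo and 1.61 in endosperm. For H2A BJ306445, embryo had 3548, 9548 and 10022 under H2O2 and 704, 716 and 929.8 under ABA, whereas endosperm had 385, 387 and 377 under H2O2 and 2508, 2453 and 2519 under ABA (interaction log2 -5.87, adjusted p = 1.2e-06). H2B-8 (BJ221397) had 80.9, 24.6 and 65.3 under H2O2 and 362, 586 and 552 under ABA in endosperm (interaction log2 -6.25, adjusted p = 8.9e-06). Among those known only by class, BJ308545 had an interaction of -7.18 (adjusted p = 2.2e-06). The 22 probe sets named H2A or H2B had a median of 0.46 in endosperm, with 11 higher under ABA, and the 23 known only by class had 2.11, with 21 higher under ABA. The median signal of the list in endosperm was 932 to 1249 in water, 851 to 995 under ABA and 309 to 377 under H2O2. The order was thus H2O2 or water above ABA in embryo and water or ABA above H2O2 in endosperm.

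LEA proteins and dehydrins pointed the same way in both tissues. In endosperm 24 of 27 were higher under ABA and 3 under H2O2, beside 1560 and 1825 of 55586 over all tested. Their median was 2.45 in endosperm and 3.67 in embryo. The interaction was called for 10 of them, 9 with the larger ABA effect in embryo and 1 with the smaller (5-array 17 and 2). PM 19 (U80037) had a log2 difference of 5.39 in embryo and 1.27 in endosperm, where ABA gave 11149, 11039.7 and 11171 and H2O2 gave 4763, 4692 and 4419 (interaction log2 4.12, adjusted p = 3.4e-09). The Rab protein X62476 had 4.97 and 1.03 (interaction adjusted p = 2.4e-06). For Em protein BQ579513, with 4.64 and 3.60, the interaction was not called with 6 embryo arrays (adjusted p = 0.13). Without H2O2_embryo replicate 1 it was called (interaction log2 0.66, adjusted p = 1.9e-04).

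Some genes were higher under ABA in embryo and had endosperm differences near 0. The storage protein class accession BJ299669 had 6.91 in embryo and 0.16 in endosperm (interaction adjusted p = 2.1e-09), with 31556, 33283 and 34976 under ABA and 30250.2, 28713 and 30096 under H2O2 in endosperm. The Ec metallothionein CD906435 had 4.10 and 0.21 (adjusted p = 1.7e-05), the xyloglucan transglucosylase match CK163798 3.60 and 0.17 (adjusted p = 2.3e-06), and the ABA response element binding factor AF519804 2.19 and 0.17 (adjusted p = 2.1e-04). The lipid transfer protein BJ296643 had 3.91 and -0.12 (adjusted p = 4.3e-07), but its embryo signals under H2O2 were near the floor. Its endosperm signals of 60525 to 85759 were exceeded by only 11 to 23 probe sets on those arrays, whose highest signals were 106081 to 172247. Whether signals this bright can still show a difference was not tested. By contrast BJ293360 had 6.71 and 5.76, and its interaction was not called (adjusted p = 0.16). Agglutinin M25537 had the larger value in endosperm, 4.27 beside 3.02 (interaction adjusted p = 0.0026). For expansins the interaction was called in 2 of 55, both lower in embryo (5-array 5 lower and 1 higher).

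**Figure D4:**
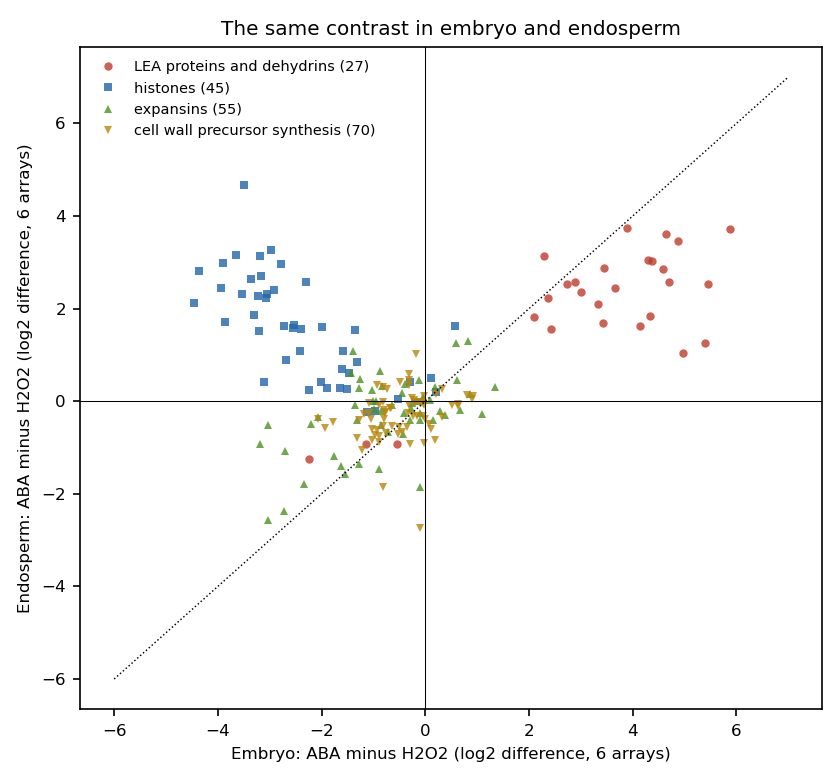
Log2 difference (ABA minus H2O2) in embryo (horizontal axis) and in endosperm (vertical axis), 6 arrays each, 1 point per probe set of 4 lists; the dotted line marks equal values. Most histones lie to the upper left, with medians of -2.55 and 1.61, and most LEA proteins lie to the upper right, with medians of 3.67 and 2.45.

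**Figure D5:**
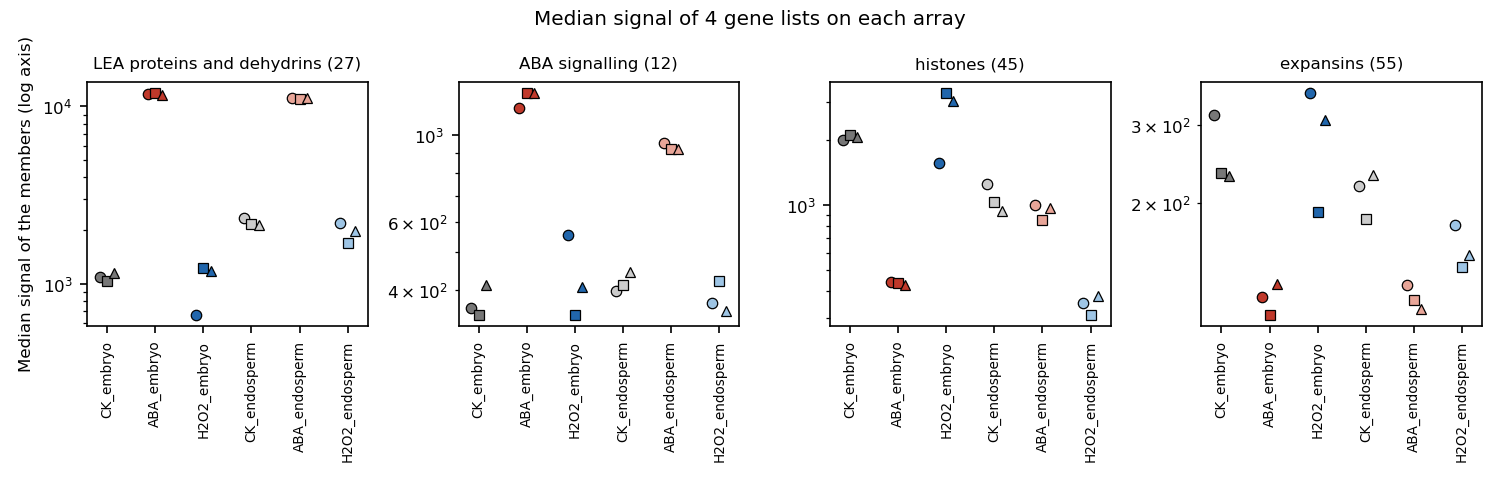
Median signal of the members of 4 lists (log axis) on each of the 18 arrays, by group; marker shapes give the replicate. LEA proteins and ABA signalling are high on the ABA arrays of both tissues, and the histone medians are lowest under ABA in embryo (423 to 440.1) and under H2O2 in endosperm (309 to 377).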

How the data were processed

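RNA from hand-dissected embryo and endosperm of germinating wheat was hybridised to 18 Affymetrix Wheat Genome arrays, 3 per tissue and treatment. The authors deposited 1 MAS5 signal intensity per probe set and array, scaled within MAS5. The methods name a target signal of 100, but the trimmed mean was 500.1 on the arrays. No detection calls or scanner files were used here.

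The 111 control probe sets were left out. Signals below 10 were set to 10, log2 was taken, and 48361 of 61179 probe sets with a signal of at least 20 on at least 3 of the 6 arrays were tested (12818 were not). Limma 3.58.1 in R 4.3.3 compared the 3 ABA_embryo with the 3 H2O2_embryo arrays (moderated test with an intensity trend, Benjamini-Hochberg adjustment). The interaction with tissue used 12 arrays and the same scale. Every result was repeated without H2O2_embryo replicate 1. The p-values measure the spread between 3 biological replicates. The fitting was tested on simulated data. Alternatives were other floors, filters, scalings, fits, tests and thresholds, a replicate block, and leaving out each array.

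The comparison, the gene lists and the tests were chosen with earlier results of these data known. Lists came from names in the study's tables, the platform annotation and the part of a MapMan table used here, which described 1415 probe sets. Named were the 15 genes with the largest called difference on either side among those annotated in the platform or supplementary tables, up to 4 called members per list, the 2 with the highest signal in lists with fewer than 2 calls, all probe sets of the quantitative PCR panel and of the genes singled out by the study, and at most 2 unnamed probe sets per direction. Other members that are named were chosen after their values were seen. Of 61179 probe sets, 5030 had a known accession.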

Additional observations from a re-analysis of the deposited data

Results flagged for a closer look

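Of 130 probe sets named here, 112 were called in embryo, and for 59 of these the ABA minus H2O2 difference in embryo also differed from that in endosperm by the interaction test, both with all 12 arrays and without H2O2_embryo replicate 1. The values below are embryo minus endosperm on the log2 scale from the 12 arrays. The interaction was above 0 for 38 of the 59 and below 0 for 21. Over all 55586 probe sets tested it was called at 2.68%, and at 9.07% without that array. Most named probe sets were picked for a large or called difference in embryo, and the interaction used the same embryo arrays. That choice favours such calls, so the 59 and their split are not independent evidence of a tissue difference.

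Among LEA proteins, dehydrins and cold proteins, the embryo value exceeded the endosperm value by 2.92 for the dehydrin CD920810, 4.12 for PM 19 (U80037), 3.94 and 2.12 for the Rab proteins X62476 and BQ806472, 1.71 for PMA1951 (CD913616), 2.85 for the cold regulated protein AB097412, 1.74 for the COR protein AF139915, and 2.82 and 2.27 for cold acclimation induced protein 2-1 (CA673444 and CA669389). For signalling and transcription it was 2.13 for phosphatase 2C (BQ807036), 2.02 for the ABA response element binding factor AF519804, 1.35 for the basic leucine zipper factor CN011008 and 1.78 for Myb3 (AJ615787). WRKY45 (BQ838257) had -1.33. The study's table of key embryo genes puts CA669389 in a plastocyanin-like class, so the name of that probe set is uncertain.

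Redox and metal-binding genes had 1.48 for the peroxiredoxin AY304482, 3.01 for alternative oxidase (AB078883), 3.89 for the Ec metallothionein CD906435 and 1.03 for metallothionein BQ606088. Lipid genes had 1.87 and 2.54 for the oleosin matches CD921530 and CD920884, 4.02 for the lipid transfer protein BJ296643, 1.28 for the acyltransferase match BE515598, 1.45 for the lipase-related match BE420352, 1.56 for the acyl-CoA oxidase match CD373536 and 0.88 for the ketoacyl-CoA synthase match CK196251. The lipoxygenase BE604829 had -4.51, which rests partly on the floor.

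The transketolase matches BJ293768 and BJ299578 had 3.63 and 2.80, and L-isoaspartyl methyltransferase (L07941) had 2.64. Pathogenesis-related protein 4 (CD915938), the cystatin AL829976 and a cysteine protease (BQ169109) had 0.72, 1.09 and 1.91. The probe sets of BJ299669 had 6.75 and 5.51, those of BJ296527 had 3.77 and 3.26, and the unnamed AJ603999 and CD907588 had 5.56 and 4.73. Agglutinin M25537 was the member called higher under ABA with a smaller value in embryo, at -1.25.

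All histones named here were lower in embryo, with -5.87, -3.53 and -5.33 for the H2A probe sets BJ306445, CD869995 and BJ274465, -5.30 and -6.25 for H2B-8 (CB307642 and BJ221397), and -6.57, -7.18, -6.38 and -5.58 for BJ214272, BJ308545, BJ308450 and BJ320258. In the cell wall, 2 xyloglucan transglucosylase matches were higher in embryo, CK163798 at 3.43 and CK212850 at 1.48. The others were lower, namely the expansin B2 match BJ249762 at -2.70, the mannan synthase match CD937007 at -1.10, the AXS2 match CF133760 at -0.84, the RGP1 match BJ283983 at -0.76, the glycosyl hydrolase match CA601935 at -3.40 and the pectin esterase CA619106 at -1.13. Sucrose:fructan 6-fructosyltransferase (AB029887) had -1.67, the ADP-glucose pyrophosphatase CK215324 had -3.40 and the salt tolerant protein BJ239674 had -3.44.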

How the results depend on the processing

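No named probe set that was called changed direction under the alternatives run, while scaling to the median moved the median over all tested probe sets from -0.17 to 0.22 and list medians near 0 with it. The counts of calls varied widely. Leaving out each array in turn gave 419 to 3952 probe sets higher under ABA and 249 to 4791 higher under H2O2, the highest without H2O2_embryo replicate 1 and otherwise 419 to 737 and 249 to 439. Without ABA_embryo replicate 1 the counts were 419 and 252, without ABA_embryo replicate 2 they were 421 and 249, without ABA_embryo replicate 3 they were 431 and 258, without H2O2_embryo replicate 2 they were 674 and 382, and without H2O2_embryo replicate 3 they were 737 and 439. Fitting all 18 arrays gave 2953 and 3508, 17 arrays 3349 and 4388, and array weights 3685 and 4475, with a weight of 0.0968 for H2O2_embryo replicate 1 and 1.23 to 1.83 for the others. The fit without a trend gave 567 and 444, SAM 468 and 77 at 5% and 279 and 6 at 1%, a threshold of 0.01 gave 538 and 306, and scaling to the median 520 and 131. Without H2O2_embryo replicate 1, quantile normalization gave 3954 and 4752 and scaling to the 75th percentile 3739 and 4741, both chosen after seeing the data. For the interaction, 18 arrays gave 1354 higher and 1203 lower in embryo, and leaving out each embryo array gave 488 to 2630 and 405 to 2414. The cause of these changes was not tested.

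Same-numbered arrays of the 2 groups had deviations from their group means correlated at 0.0885, 0.0443 and 0.0509. Differently numbered arrays had -0.0775 to 0.0323. The same-numbered values were the higher ones but all were weak, so whether the replicate numbers pair the arrays was not settled. A replicate block gave 812 and 637 calls, 3935 and 5243 without H2O2_embryo replicate 1, and 705 and 600 for the interaction.

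Of the 112 called named probe sets, SAM kept 58 at 5% and 35 at 1%, scaling to the median 64, and leaving out 1 of the other 5 arrays 65 to 88. All 15 leading genes on the ABA side kept their calls under every alternative. Each of the 15 on the H2O2 side lost its call under 1 to 12 alternatives, SAM at 1% among them in every case. Signals near 10 limit the fold of low genes, and 80 called probe sets had a group mean below 20.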

Other observations

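On the log2 scale the mean of CK_embryo lay between the treatment means for 773 of the 1056 probe sets higher under ABA and 768 of the 902 higher under H2O2. The mean of CK_embryo also lay outside the treatment means for the genes that follow. Of these, only the cysteine protease BQ169109 was among the called probe sets counted above. CA719001, of the class starch cleavage, had 1415, 1404 and 1409 in CK_embryo, 112, 188 and 186 in H2O2_embryo and 64.6, 75.9 and 52.8 in ABA_embryo, so both treatments were below water. Cysteine protease BQ169109 had 3364, 3109.8 and 3551 in CK_embryo, above 1514, 1811 and 1667 under ABA and 345, 705 and 769 under H2O2. Aquaporin BJ263716 had 15182, 15509.8 and 15674 in water against 8169.7, 8731 and 8433 under ABA and 5733, 14499 and 13424 under H2O2.

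Of the lipid transfer proteins and oleosins, 13 of 21 were higher under ABA and 0 under H2O2 in endosperm, and 4 and 0 in embryo. The interaction was called for 4 with a higher and 4 with a lower value in embryo. In phospholipid, glycolipid and triacylglycerol synthesis 19 of 99 were higher under ABA in endosperm and 6 in embryo. Over all probe sets tested in endosperm, 1560 of 55586 were higher under ABA and 1825 under H2O2. All 6 starch cleavage probe sets were higher under H2O2 in endosperm, with a median log2 difference of -1.70 beside -1.27 in embryo. Heat shock protein 70 (CA699307) had 0.41 in embryo, where it was not called, and -1.78 in endosperm (interaction log2 2.19, adjusted p = 0.032).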
